A study of Rattus norvegicus with 6 samples.

Results

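The neurotrophin system was followed through 6 of its genes in cell fractions of the rat epididymis: the ligand genes Bdnf and Ntf3, the receptor genes Ngfr, Ntrk2 and Ntrk3, and the sorting receptor gene Sort1. They were chosen by name and with their basal to non-basal pattern already known, and they are 6 of the 18166 genes that a probe set with 1 gene symbol measured. The epididymis is the coiled duct in which sperm mature, and its basal cells are small cells that lie on the basement membrane beneath the luminal epithelium. Tissue came from Sprague-Dawley rats of 48 days and was split magnetically into a basal and a non-basal fraction, and RNA of each was put on 3 Affymetrix RaGene 2.0 ST arrays, called B1 to B3 and N1 to N3 below by fraction and labelled replicate number. The labels name 3 rats but tie no array to an animal, give no genetic change or treatment for either fraction, and do not say which surface molecule the separation used. The non-basal fraction is what the separation left, so it is a mixture of cell types and not a single type.

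Neurotrophins are secreted growth factors best known for keeping neurons alive and for guiding the nerves that reach a tissue. They are made as precursors that proteases cleave to mature ligands, and mature ligands signal through the Trk receptor kinases: the brain-derived factor (Bdnf) through TrkB, the product of Ntrk2, and neurotrophin-3 (Ntf3) mainly through TrkC, the product of Ntrk3. The receptor p75, the product of Ngfr, binds all mature neurotrophins, and with sortilin, the product of Sort1, it binds the uncleaved precursors. Outside the nervous system p75 is used as a marker of basal cells in several layered epithelia, and it is also made by Schwann cells and by cells around blood vessels.

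Of the 6 genes, 3 had entries in the RefSeq promoter table of the GRCr8 build, namely Bdnf, Ntf3 and Sort1, and Ngfr, Ntrk2 and Ntrk3 were not matched. Bdnf had 6 annotated starts, whose windows spread over 20475 bases, Ntf3 had 3 and Sort1 had 1. The array measured each gene with 1 probe set, so the level of a gene is a sum over whichever of its starts and isoforms the probe set covers, and RefSeq lists 11 transcripts for Bdnf, 5 for Ntf3, 1 for Ngfr, 14 for Ntrk2, 8 for Ntrk3 and 4 for Sort1. The 3 windows below, each the 250 bases before a start and read 5′ to 3′ on the strand of the gene, are shown as examples, that of Bdnf because it alone of the 6 Bdnf windows held a match to the cyclic AMP motif named below. The Bdnf window lies before the start numbered 4 by coordinate (chr3:116637608-116637857, plus strand), the Ntf3 window before its start of lowest coordinate (chr4:160668908-160669157, minus strand), and the Sort1 window before its only start (chr2:198612245-198612494, plus strand).
Bdnf: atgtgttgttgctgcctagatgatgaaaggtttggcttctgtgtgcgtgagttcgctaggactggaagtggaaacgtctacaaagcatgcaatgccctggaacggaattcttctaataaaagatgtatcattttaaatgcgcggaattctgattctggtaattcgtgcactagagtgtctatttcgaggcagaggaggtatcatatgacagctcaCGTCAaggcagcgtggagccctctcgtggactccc
Ntf3: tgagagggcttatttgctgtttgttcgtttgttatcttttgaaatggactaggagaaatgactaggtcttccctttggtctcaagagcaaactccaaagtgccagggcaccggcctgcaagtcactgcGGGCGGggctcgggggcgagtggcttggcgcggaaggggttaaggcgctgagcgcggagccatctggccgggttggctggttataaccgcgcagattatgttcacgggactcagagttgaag
Sort1: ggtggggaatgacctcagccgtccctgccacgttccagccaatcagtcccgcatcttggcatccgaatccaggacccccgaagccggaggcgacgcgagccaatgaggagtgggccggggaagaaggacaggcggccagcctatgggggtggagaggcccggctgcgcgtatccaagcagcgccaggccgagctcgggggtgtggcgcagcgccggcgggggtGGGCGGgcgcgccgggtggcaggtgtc
Capitals mark matches, on either strand, to TGACG, the core of the cyclic AMP response element, to the GC box GGGCGG, or to the TATA box TATAAA. The Bdnf window shown held 1 match to TGACG and neither of the other motifs. Of the other Bdnf windows, that of start 3 held 2 GC boxes, that of start 2 held 1 TATA box, and those of starts 1, 5 and 6 held none of the motifs. The Sort1 window and each of the 3 Ntf3 windows held 1 GC box. Among 33469 windows of the same length before all RefSeq starts, 18.2% held TGACG, 30.5% held GGGCGG and 12.9% held TATAAA. The full cyclic AMP response element TGACGTCA, held by 1.59% of those windows, was absent from every window of Bdnf, Ntf3 and Sort1. The GC content was 46.8% in the Bdnf window shown and 41.6% to 60.0% over all 6, 55.6% in the Ntf3 window shown and 62.8% in the others, and 71.6% in the Sort1 window, against a median of 51.2% over all windows. These matches describe the letters in the windows, and binding was not measured.

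The values were log2 expression values made by the authors with RMA, so a difference of 1 is a 2-fold change. Array medians lay between 6.63 and 6.70. The basal fraction carried its defining transcripts: the 15 measured genes of a list of 19 basal cell markers were all higher there by limma at a Benjamini-Hochberg adjusted p under 0.05 (12 to 15 of them with 1 array left out), among them the transcription factor gene Tp63, whose call held with each array left out, and the keratin gene Krt14, whose call was lost without B1 or B2 (limma adjusted p up to 0.0663). B3 and N1 stood apart from the other arrays of their fractions. The mean of 20 fibroblast markers was 9.14 in B3 against 7.61 in B1 and 8.04 in B2, and 10.98 in N1 against 11.95 in N2 and 11.80 in N3. Values without both arrays are therefore given below.

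The receptor genes Ngfr and Ntrk2 were lower in the basal fraction, each by more than 2-fold, while the differences of the Trk receptor gene Ntrk3 and of both ligand genes were 0.20 log2 units or less in size. Sort1 was lower in the basal fraction but its fractions overlapped. Because the genes were picked with these differences in view, the differences are given as descriptions with their errors and without a test. The 3 basal and 3 non-basal values did not overlap for 3 of the 6 genes, and the same was true of 32.9% of all genes. In fractions of many cells, fewer cells that make a transcript and less transcript per cell cannot be told apart.

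Ngfr had log2 values of 7.74, 7.55 and 7.75 in B1, B2 and B3, and of 8.61, 9.19 and 9.16 in N1, N2 and N3. All 3 basal arrays lay close together and below all 3 non-basal arrays, with a gap of 0.86 between the nearest arrays, and the lowest non-basal value was that of N1. Basal arrays averaged 7.68 ± 0.109 (SD, n = 3) and non-basal arrays 8.99 ± 0.331 (SD, n = 3), so the basal minus non-basal difference was -1.31 ± 0.172 (SE) on the log2 scale, or 2.48-fold lower. Of all genes measured, 2.64% had a difference as low or lower. With 1 array left out the difference stayed between -1.50 and -1.21, and without both arrays that stood apart it was -1.53. The gene that serves as a basal marker in other epithelia thus had its lower values here in the fraction that carried the basal keratins.

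Ntrk2, which encodes the receptor for Bdnf and neurotrophin-4, followed the same order. Its values were 8.04, 8.15 and 8.26 in B1 to B3 and 8.94, 9.65 and 9.42 in N1 to N3. Again the fractions were apart, by 0.68, and N1 was the lowest of its fraction. The means were 8.15 ± 0.109 and 9.34 ± 0.36 (SD, n = 3 each), a log2 difference of -1.19 ± 0.185, or 2.27-fold lower, and 3.09% of all genes had a difference as low or lower. The difference ranged from -1.38 to -1.03 with 1 array left out and was -1.44 without both arrays that stood apart. Ntrk2 is known to give rise to full-length receptors and to truncated forms without the kinase, and the single probe set does not tell them apart.

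**Figure D1:**
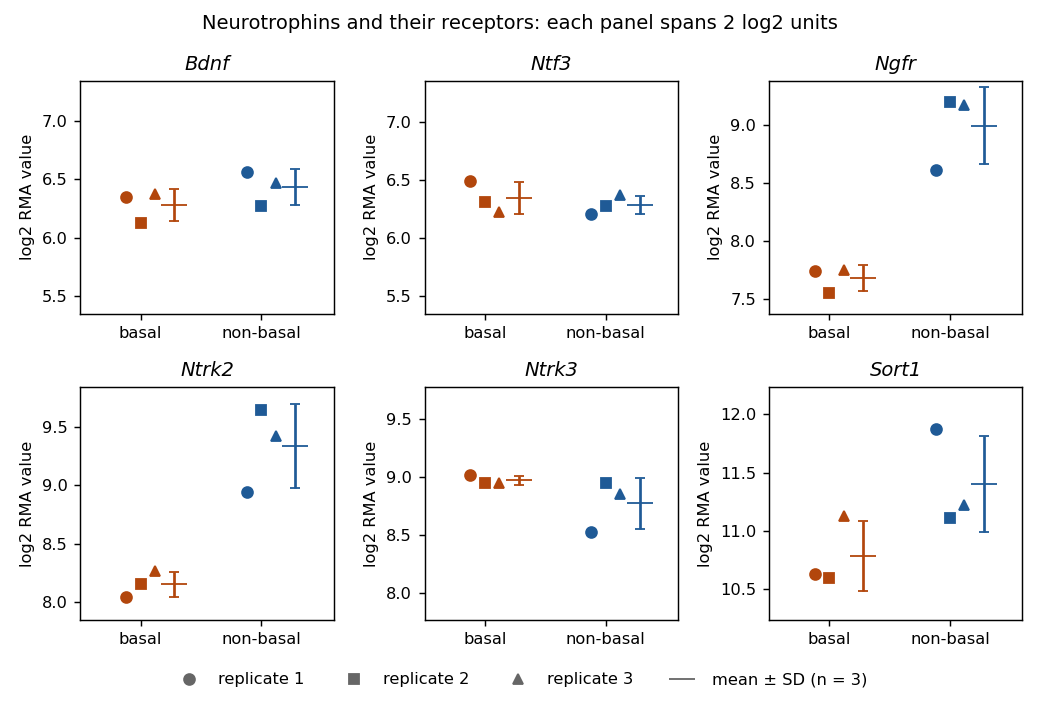
Log2 RMA values (vertical axes, each panel spanning 2 log2 units around its own midpoint) of the 6 genes in the basal and non-basal fractions. Points are arrays, with the symbol giving the replicate number, and bars are the mean ± SD over 3 arrays. Ngfr and Ntrk2 are apart by 0.86 and 0.68 between the nearest arrays, whereas the points of Bdnf, Ntf3 and Sort1 overlap between the fractions.

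Ntrk3, the neurotrophin-3 receptor gene, had basal values of 9.02, 8.95 and 8.95 and non-basal values of 8.52, 8.94 and 8.85. The fractions were separated by 0.0007 log2 units only, and N1 alone stood clearly below the rest. Basal arrays averaged 8.97 ± 0.0416 and non-basal arrays 8.77 ± 0.22 (SD, n = 3 each), a difference of 0.20 ± 0.119. Leaving out N1 reduced the difference to 0.07, and without both arrays that stood apart it was 0.08. The differences of the Trk receptor genes Ntrk2 and Ntrk3 were thus of opposite sign.

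Sort1 encodes sortilin, which carries neurotrophin precursors inside cells and joins p75 at the surface. It had values of 10.63, 10.60 and 11.13 in B1 to B3 and 11.87, 11.11 and 11.23 in N1 to N3. B3 reached just above the lowest non-basal value, and N1 was the highest of all. The means were 10.78 ± 0.299 and 11.40 ± 0.41 (SD, n = 3 each), a difference of -0.62 ± 0.245, and 7.67% of all genes had a difference as low or lower. Without N1 the difference was -0.38, without B3 it was -0.79, and without both it was -0.56. Its order over the arrays thus differed from that of Ngfr and Ntrk2, in which N1 was the lowest of its fraction.

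The values of both ligand genes among the 6 overlapped between the fractions. Bdnf had values of 6.35, 6.12 and 6.37 in B1 to B3 and 6.57, 6.27 and 6.47 in N1 to N3. Its difference was -0.16 ± 0.11, and it ranged from -0.24 without N2 to -0.08 without B2. Ntf3 had values of 6.49, 6.32 and 6.22 in B1 to B3 and 6.21, 6.28 and 6.37 in N1 to N3, with a difference of 0.06 ± 0.0923 that turned to -0.02 without B1. Both genes were dim. Their means lay below 6.61, the 95th percentile of the larger fraction mean over 1344 olfactory and vomeronasal receptor genes, a class used here as a reference for dim probe sets, and at such levels a difference may not be detectable. The receptor genes Ngfr, Ntrk2 and Ntrk3 and Sort1 lay above that level, and 4 of the 6 genes had a mean of at least 7 in a fraction.

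The ligand gene Ntf4, which encodes neurotrophin-4 and was not among the 6, had values of 6.75, 6.52 and 6.61 in B1 to B3 and 6.19, 6.41 and 6.42 in N1 to N3. The fractions did not overlap, and the difference of 0.29 ± 0.0971 did not pass limma's test over all genes (adjusted p = 0.106). Ntf4 was dim as well: its basal mean of 6.63 lay just above the reference of 6.61 and its non-basal mean of 6.34 below it.

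Transcripts of other cell types that can carry these receptors moved with the fractions. Of 20 fibroblast markers 19 were lower in the basal fraction by limma at an adjusted p under 0.05, and the list mean ranged from 7.61 to 9.14 over B1 to B3 and from 10.98 to 11.95 over N1 to N3. Of 14 measured smooth muscle and pericyte markers 12 were lower (list mean 8.13 to 8.73 against 9.98 to 10.18), and of 14 endothelial markers 13 were lower (6.84 to 7.13 against 8.17 to 8.38). Among all genes tested, 7.14% were lower and 7.71% were higher. Fibroblast markers that were lower numbered 7 without B2 or without N3, and 9 without N2. The smooth muscle gene Tagln had a difference of -1.58, and the endothelial genes Cdh5 and Tie1 of -2.27 and -1.60. These calls held with each array left out. The fibroblast receptor gene Pdgfra had a difference of -3.87, and its call was lost without B2, N2 or N3 (limma adjusted p up to 0.0604). Calls of the fibroblast gene Dcn and the smooth muscle gene Myh11, also lower, were lost without the same arrays (limma adjusted p up to 0.0846 and 0.0635). Of 16 T and natural killer cell markers 9 were lower, ranging from 6 without B1, B2, N2 or N3 to 14 without N1, and the 15 markers of macrophages and dendritic cells had 2 lower, or 9 without N1 and 0 without B1, B3, N2 or N3. Of 18 principal and other luminal cell markers 1 was higher and 1 was lower, or 8 lower without B3. The part of these cell types in the Ngfr and Ntrk2 values was not tested.

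Schwann cells are the glia of peripheral nerves and a known source of p75. Of 18 measured Schwann cell and glia markers 1 was lower and 1 was higher, or 11.1% called beside 14.9% of all genes. Their list mean was 7.26 to 7.42 over B1 to B3 and 7.48 to 7.62 over N1 to N3. The defining transcription factor gene Sox10 had a difference of -0.18 ± 0.0955 (limma adjusted p = 0.267), and the glial calcium-binding protein gene S100b one of -1.23 ± 0.369 (adjusted p = 0.0825). The pair that passed, named after their values were seen, were the myelin genes Pmp22, lower at -0.996 ± 0.114 (adjusted p = 0.00445), and Mbp, higher by 1.12 ± 0.211 (adjusted p = 0.0205). The call of Pmp22 held with each array left out, that of Mbp held in 1 fit only, the one without B3 (adjusted p of up to 0.0891), and without N1 the number of these markers that were lower was 5. Of 17 neuron markers 2 were lower and 0 were higher, or 11.8% called beside the same 14.9%. They were Rbfox3 at -1.50 and Stmn2 at -0.92, again named after the fact. Their list had a mean of 6.13 to 6.35 against 6.57 to 6.69. With 1 array left out 0 to 3 neuron markers were lower, the 0 being without B2 or N2, and both calls were lost then, that of Rbfox3 also without N3 and that of Stmn2 without B1 (limma adjusted p up to 0.0825 and 0.107).

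**Figure D2:**
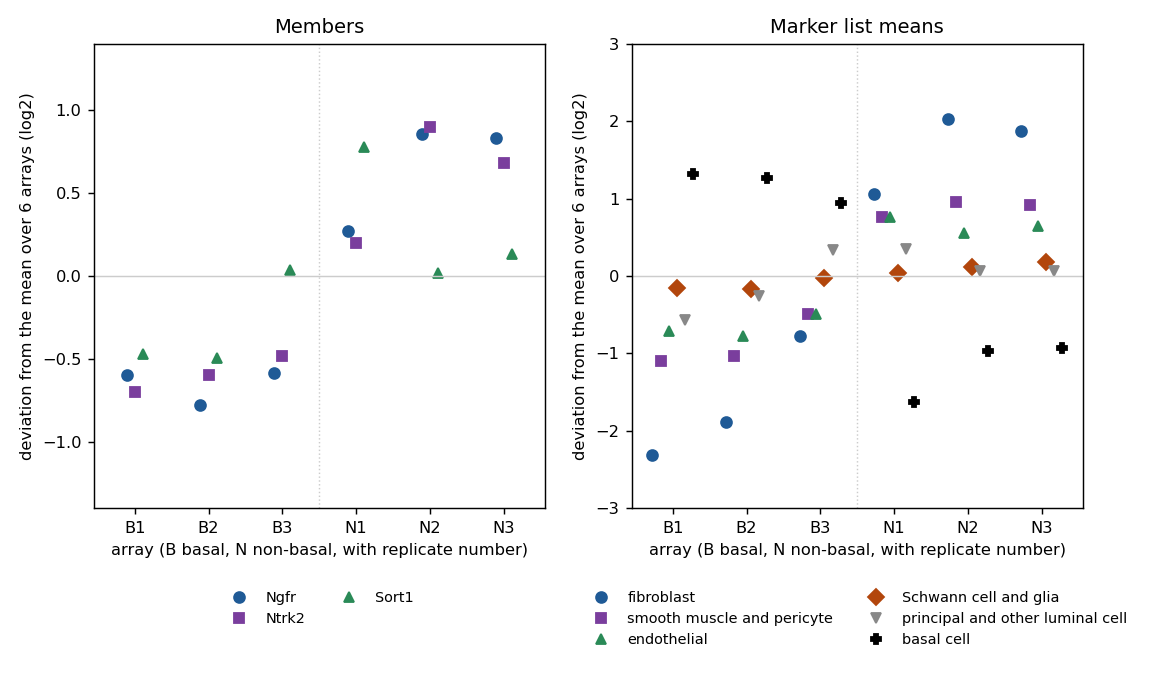
Deviation of each array (horizontal axis) from the mean over the 6 arrays, in log2 units, for Ngfr, Ntrk2 and Sort1 on the left and for the means of 6 marker lists on the right, where the vertical axis covers a wider range. N1 is the lowest non-basal array for Ngfr (0.27) and Ntrk2 (0.20) and the highest for Sort1 (0.78). Among the lists it is the lowest for fibroblast (1.06), smooth muscle and pericyte (0.76), Schwann cell and glia (0.04) and basal cell (-1.63). It is the highest for the endothelial (0.77) and luminal (0.34) lists.

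Array by array, Ngfr and Ntrk2 deviated from their own means over the 6 arrays by similar amounts. Such deviations contain the fraction difference, which was known when the genes were chosen, so their closeness partly restates it. The deviations of Ngfr were 0.27, 0.86 and 0.83 in N1, N2 and N3, and those of Ntrk2 were 0.20, 0.90 and 0.68. Fibroblast markers shared the low place of N1, at 1.06 against 2.04 and 1.88. Every other marker list shared it too, the basal list included, except the endothelial and the luminal list. In B1, B2 and B3 the fibroblast markers deviated by -2.31, -1.88 and -0.78, Ntrk2 by -0.70, -0.60 and -0.48, and Ngfr by -0.60, -0.78 and -0.59. Ntrk2 thus had the same order over the basal arrays as the fibroblast markers, and Ngfr had B3 highest as well, with B1 and B2 exchanged. These orders were not particular to the fibroblast list. The smooth muscle and pericyte list and the T and natural killer cell list had the order of Ntrk2 in each fraction. The neuron list had that of Ngfr. Sort1 instead had B3 and N1 as the highest arrays of their fractions. The same arrays were highest for the list of 18 principal and other luminal cell markers. That list deviated by -0.57, -0.26 and 0.34 in B1 to B3 and by 0.34, 0.07 and 0.07 in N1 to N3. They were highest for the endothelial list as well, at -0.71, -0.78 and -0.49, and at 0.77, 0.55 and 0.65. The endothelial list also had the full order of Sort1 in each fraction. With 3 arrays per fraction such orders are descriptions.

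When 16350 other genes were ranked by the root mean square difference of these deviations over the 6 arrays, Ntrk2 was the 19th closest to Ngfr, at 0.119, and Ngfr the 22nd closest to Ntrk2. The 3 closest to Ngfr were Pam, a peptide-amidating enzyme gene (0.0483), Ripk2, which encodes a kinase that can bind p75 (0.0575), and Dpysl2 (0.0687). Closest to Ntrk2 were Selenon (0.0585), the Src-family kinase gene Fyn (0.063) and the protease inhibitor gene Timp2 (0.0741). For Sort1 they were Prokr1, Cyb5b and Fam83e, at 0.0379 to 0.0521. Bdnf, Ntf3 and Ntrk3 varied so little that many genes lay near them, the closest being Srd5a3 to Bdnf, Prl8a3 to Ntf3 and Aldh18a1 to Ntrk3, at 0.0237 to 0.0332. These distances are descriptions over 6 arrays of 2 fractions, and they too contain the fraction difference that was known beforehand.

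Around the 6 genes, 128 further genes of the pathway were measured, from lists of co-receptors, proteases, signalling partners and response genes. By limma at an adjusted p under 0.05, 18 had higher and 15 lower values in basal arrays and 95 did not pass, a share called of 25.8% beside 14.9% of all genes. The median difference was 0.05, beside 0.00343 for all genes. Among brighter genes, those with a mean of at least 7 in a fraction, 28.3% of 113 pathway genes and 22.5% of all genes were called. The counts depended on single arrays: 7 higher and 7 lower without B1, 6 and 5 without B2, 8 and 5 without N2, and 6 and 4 without N3. Without both arrays that stood apart 25 were higher and 25 were lower.

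**Figure D3:**
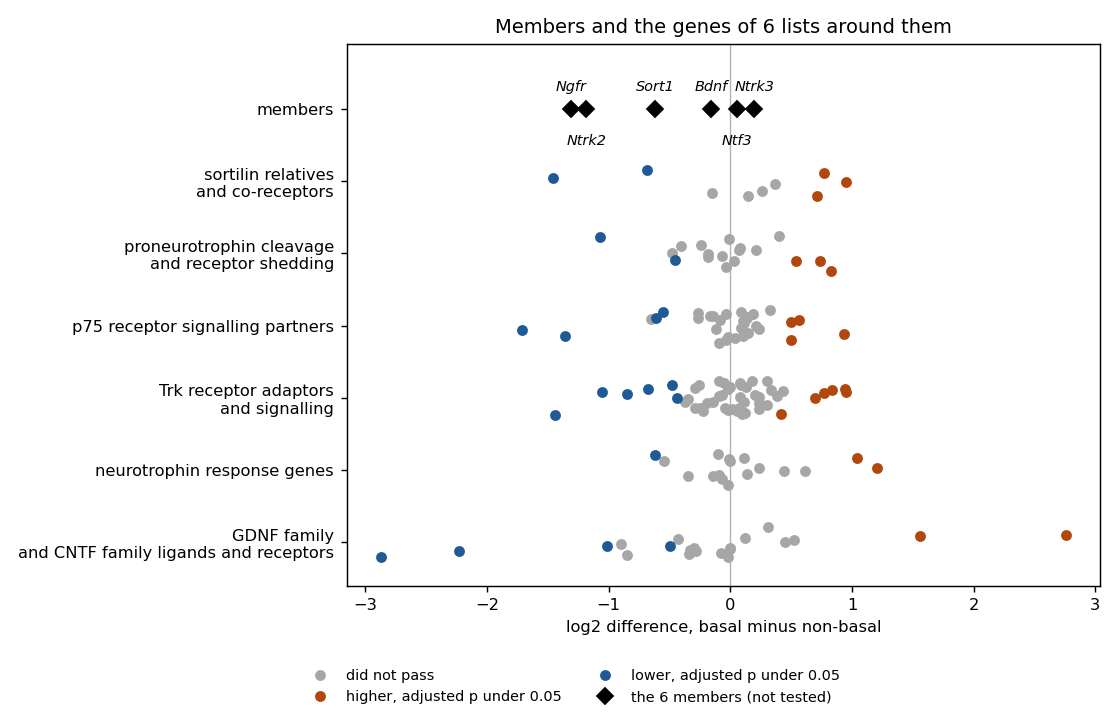
Log2 differences, basal minus non-basal (horizontal axis), of the 6 genes (black diamonds, not tested) and of the measured genes of 6 lists (circles, jittered vertically). Colour marks genes at a limma adjusted p under 0.05, and in each of the 6 lists some genes were higher and some were lower, with differences from -1.46 to 0.95 among the sortilin relatives and co-receptors.

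Relatives of sortilin and p75, counted together with co-receptors, went in both directions. Of the 9 genes of this list 3 were higher, 2 were lower and 4 did not pass, or 55.6% called beside 14.9% of all genes. Sorl1, a sortilin-related sorting receptor, was higher by 0.71 ± 0.115 (limma adjusted p = 0.012). Tnfrsf19, a receptor of the p75 superfamily, was higher by 0.77 ± 0.124 (adjusted p = 0.0123), and Nradd, which encodes a p75-like protein with a death domain, by 0.95 ± 0.172 (adjusted p = 0.0174). The sortilin family members Sorcs3 and Sorcs2, the second of which is a p75 partner, were lower at -1.46 ± 0.234 and -0.68 ± 0.115 (adjusted p = 0.0119 and 0.0136). Sorcs3 had values of 5.99, 5.63 and 6.48 in B1 to B3 and 7.27, 7.72 and 7.48 in N1 to N3, and its 3 basal values lay below the level of 6.61 used above as the reference for dim probe sets. All 5 calls were lost without N3, with adjusted p of 0.0656 to 0.086. Without B1 or N2 only that of Sorl1 remained, and without B2 those of Sorl1 and Nradd were lost.

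Of 18 measured genes for cleavage of neurotrophin precursors and shedding of their receptors 3 were higher, 2 were lower and 13 did not pass. Called were thus 27.8%, beside 14.9% of all genes. Adam17, which encodes a sheddase of p75, was higher by 0.54 ± 0.0741 (limma adjusted p = 0.00747), with values of 9.83, 9.85 and 9.67 in B1 to B3 and 9.29, 9.25 and 9.20 in N1 to N3, and its call held with each array left out. Plat, the tissue plasminogen activator gene, was lower at -1.07 ± 0.175 (adjusted p = 0.0124), as was the gamma-secretase gene Psen2 at -0.46 ± 0.0956 (adjusted p = 0.0279). The metalloproteinase genes Mmp7 and Mmp3 were higher by 0.83 ± 0.166 and 0.73 ± 0.171 (adjusted p = 0.0243 and 0.0387). Mmp3 was dim in the non-basal fraction, with 6.45, 6.47 and 6.51 in N1 to N3, all below the reference of 6.61. Without B1, B2 or N2 the calls of Plat, Psen2, Mmp7 and Mmp3 were all lost, with adjusted p of up to 0.0679, 0.111, 0.0971 and 0.14. Those of Plat and Mmp3 were also lost without N3, that of Mmp3 without N1 and that of Mmp7 without B3.

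Of 33 measured partners of p75 signalling 4 were higher, 4 were lower and 25 did not pass, or 24.2% called beside 14.9% of all genes. Ndn, which encodes the p75-binding protein necdin, was lower: its values were 6.09, 6.14 and 6.27 in B1 to B3 and 7.49, 8.05 and 8.07 in N1 to N3, a difference of -1.71 ± 0.17 (limma adjusted p = 0.00319). All 3 basal values lay below the dim reference of 6.61, so no fold is given. The kinase gene Ripk2 was lower at -1.36 ± 0.182 (adjusted p = 0.00687), with 8.88, 8.69 and 9.02 against 9.84, 10.47 and 10.35. Pard3, a polarity gene whose product recruits p75 in Schwann cells, was higher by 0.50 ± 0.0577 (adjusted p = 0.0045). These 3 calls held with each array left out. Mapk10 and Myd88 were lower at -0.55 and -0.61 and Rtn4, which encodes the myelin-associated inhibitor Nogo, was higher by 0.94 (adjusted p = 0.0168, 0.0222 and 0.0209). All 3 calls were lost without B2, N2 or N3, those of Myd88 and Rtn4 also without N1 and that of Rtn4 without B1, with adjusted p of up to 0.0746, 0.0889 and 0.0969. Mapk10 was dim in both fractions, with means of 5.97 and 6.52 below the reference of 6.61, and it was not among the genes tested when dim genes were filtered at that level or at a mean of 7.

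Among 51 measured adaptors and kinases downstream of Trk receptors, which also serve many other receptors, 6 were higher, 6 were lower and 39 did not pass. This was 23.5% called, beside 14.9% of all genes. The 6 genes with the smallest p were as follows. The insulin receptor substrate gene Irs2 was higher by 0.95 ± 0.0871 and Irs1 lower at -1.05 ± 0.157 (limma adjusted p = 0.00267 and 0.00937). The docking protein gene Gab1 was higher by 0.77 ± 0.111 and Gab2 lower at -0.85 ± 0.11 (adjusted p = 0.00844 and 0.00596). Nedd4l, a ubiquitin ligase gene, was higher by 0.94 ± 0.112 (adjusted p = 0.0049) and the transcription factor gene Mef2c lower at -1.44 ± 0.228 (adjusted p = 0.0115). The calls of Irs2, Gab2 and Nedd4l held with each array left out. Those of Irs1, Gab1 and Mef2c were lost without B2 or N3, and that of Mef2c also without B1, with adjusted p of up to 0.0561, 0.0519 and 0.0656.

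Of 17 measured genes that respond to neurotrophins in neurons, and to many other stimuli, 3 passed, or 17.6% beside 14.9% of all genes. Arc and Plaur were higher and Nr4a1 was lower. Arc, an activity-regulated gene, had values of 9.20, 9.12 and 9.23 in B1 to B3 and 7.67, 8.06 and 8.20 in N1 to N3. Its difference of 1.21 ± 0.142 (limma adjusted p = 0.00482) held with each array left out. Plaur, the urokinase receptor gene, was higher by 1.04 ± 0.171 (adjusted p = 0.0127) and the nuclear receptor gene Nr4a1 lower at -0.62 ± 0.124 (adjusted p = 0.0242). Both calls were lost without B1, B2 or N3, and that of Nr4a1 also without N2, with adjusted p of up to 0.0684 and 0.105.

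Other neurotrophic factor systems were measured for comparison, 21 genes of the GDNF and CNTF families and related ligands. Of these, 2 were higher, 4 were lower and 15 did not pass, or 28.6% called beside 14.9% of all genes. Ret, the signalling receptor of the GDNF family, had values of 10.48, 10.50 and 9.85 in B1 to B3 and 7.10, 7.96 and 7.48 in N1 to N3, a difference of 2.76 ± 0.274, or 6.78-fold higher (limma adjusted p = 0.00316). Gfra2, which encodes the ligand-binding co-receptor for neurturin, went the other way with 7.68, 7.71 and 8.65 against 10.66, 10.94 and 11.06, or 7.32-fold lower (-2.87 ± 0.281, adjusted p = 0.00309). Ret and Gfra2, whose products act together, thus had their higher values in different fractions.

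The cytokine gene Lif was higher by 1.56 ± 0.131 and the growth factor gene Mdk, which encodes midkine, lower at -2.23 ± 0.195 (limma adjusted p = 0.00237 and 0.00258). All 4 calls, those of Ret, Gfra2, Lif and Mdk, held with each array left out. Gfra4, another GDNF family co-receptor gene, and Cntfr, the ciliary neurotrophic factor receptor gene, were lower at -0.50 ± 0.113 and -1.01 ± 0.236 (adjusted p = 0.0359 and 0.0394). Each held in 1 of the 6 fits, Gfra4 only without B3 and Cntfr only without N1, with adjusted p of up to 0.131 and 0.148. The fibroblast markers given above differed between the fractions in the direction of Gfra2 and Mdk, and their part in those values was not tested.

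**Figure D4:**
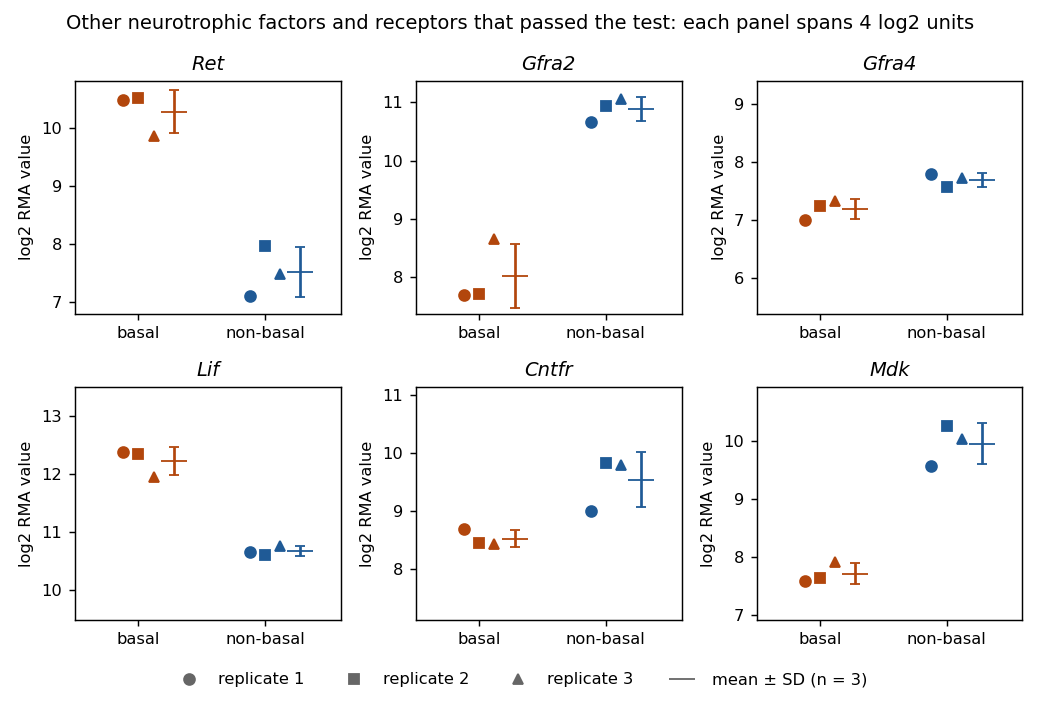
Log2 RMA values (vertical axes, each panel spanning 4 log2 units) of the 6 genes of other neurotrophic factor systems that passed the test. Points are arrays by replicate number and bars are the mean ± SD over 3 arrays. Ret and Lif are higher in the basal arrays, and Gfra2, Gfra4, Cntfr and Mdk are lower.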

How the data were processed

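Per the submitters' notes on processing, the authors deposited log2 values from RMA run in Affymetrix Expression Console. The sources used here give neither the version of that software nor the genome build. RMA matches the arrays' distributions, so a shift shared by most genes would not be visible. Probe sets with exactly 1 symbol in the platform annotation (18511 of 36685) were kept, 1 per gene by the highest mean over the 6 arrays. For all 18166 genes limma 3.58.1 (lmFit, eBayes; R 4.3.3) fitted the basal minus non-basal difference on the log2 scale, two-sided and with no block, and p-values were adjusted by the Benjamini-Hochberg method. SDs are over 3 arrays and SEs are limma's moderated ones. The fit was tested on simulated data.

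The 6 genes and all lists were chosen with earlier results of these data known. Named list genes were up to 6 per list that passed, in order of p, and otherwise the 2 with the smallest p. Of the marker lists the first 2 measured genes could be named. As no label says that arrays came from separate animals, p-values measure only the spread between these arrays, which may be technical. Alternatives were a replicate block, quantile normalization, median centring, the mean of all probe sets, array weights, filters on dim genes (a mean of 5 or 7, or the receptor percentile), a trend with robust spread, other thresholds and arrays left out. RefSeq sequences are of GRCr8.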

Additional observations from a re-analysis of the deposited data

How the results depend on the processing

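Over the replicate block, quantile normalization, median centring, the mean of all probe sets and array weights, the differences of all 6 genes kept their sign and moved by less than the SD between arrays. Those of Ngfr lay between -1.45 and -1.31, those of Ntrk2 between -1.34 and -1.19 and those of Sort1 between -0.68 and -0.58. With 1 array left out the ranges were -0.24 to -0.08 for Bdnf, -0.02 to 0.12 for Ntf3, -1.50 to -1.21 for Ngfr, -1.38 to -1.03 for Ntrk2, 0.07 to 0.28 for Ntrk3 and -0.79 to -0.38 for Sort1. The median difference of all genes was 0.00343, and it moved to -0.0292 with quantile normalization and to -0.0114 with centring.

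Counts moved more. Array weights gave 2868 genes higher and 2323 lower over all genes and 28 and 23 over the pathway genes. An adjusted p under 0.01 gave 491 and 556, and 6 and 4, and a difference of at least 2-fold gave 415 and 645, and 2 and 6. Without B3 and N1, the arrays that stood apart, the counts were 2499 and 2124, and 25 lower pathway genes. With 1 array left out they ranged from 509 to 2068 higher and 542 to 1607 lower over all genes, and from 6 to 24 and 4 to 17 over the pathway genes. The filters, the trend with robust spread, both normalizations, the mean of all probe sets and the replicate block kept all 4 counts within 1.5 times. A stricter threshold lowers a count by construction. For the array weights and the arrays left out, which moved counts up or down, the cause was not tested.

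The replicate numbers were not taken as pairs. The correlation of the deviations was 0.0278 to 0.0383 for arrays of the same number and -0.0679 to 0.027 for others. All were small, but 6 of 6 arrays correlated best with their own number, so these values do not settle whether the arrays were paired. With the replicate block 982 genes were higher and 1027 lower, 17 and 10 of them pathway genes, and the 6 differences were the same. Of 31 calls named among the pathway genes and the GDNF and CNTF families 25 held with it and 6 were lost by limma's adjusted p: Psen2 (0.0665), Mmp3 (0.0682), Mapk10 (0.0578), Nr4a1 (0.0596), Gfra4 (0.0881) and Cntfr (0.0844). Without both arrays that stood apart 28 held, and Tnfrsf19 (0.0568), Psen2 (0.0677) and Gfra4 (0.0602) were lost. Of the marker genes named with a call, that of Stmn2 was lost with the block (0.0736) and without both arrays (0.0547). Arrays have no read depth. Their number and, for Bdnf and Ntf3, the dim signal limit the precision.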
